A study of Danio rerio with 3 samples.

Results

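The genes of pyruvate dehydrogenase, its kinases and phosphatase, and the citrate (tricarboxylic acid) cycle were examined in RNA-seq data of whole zebrafish embryos at 36 hpf. The 35 genes were taken by symbol from a list that covers the subunits of each enzyme and their paralogues, and each symbol named exactly 1 of the 32520 genes in the count table. Embryos of the Tubingen strain were sequenced as 3 libraries, 1 per genotype: wild type (labelled WT), setd2+/- (labelled HE) and setd2-/- (labelled HO). The study describes them as littermates and used CRISPR/Cas9 frame-shift lines, with E3fs1 (exon 3) as the line meant where none is named. The labels name no line, and the number of embryos behind each library is not given in the sources used here. With 1 library per genotype, no difference has a replicate check, no p-value is given, and each statement below compares these libraries and not the genotypes.

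Pyruvate dehydrogenase is the mitochondrial complex that turns pyruvate from glycolysis into acetyl-CoA. Its kinases switch it off by phosphorylation, and its phosphatases switch it back on. The citrate cycle then oxidizes the acetyl group and passes the electrons to the respiratory chain, in part through succinate dehydrogenase, which is both a cycle enzyme and a respiratory complex. Several steps have cytosolic counterparts with other uses, such as the malate-aspartate shuttle, which carries reducing equivalents into the mitochondrion. Zebrafish carry paired copies of many of these genes, which are written with the suffixes a and b.

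The counts summed to between 12760683 and 14160325 per library. Values are given as deposited FPKM, a level per exonic length and per library total that allows genes to be set side by side, and as log2 ratios of counts after TMM scaling (a library scaling that assumes most genes do not differ). Each ratio has a 95% interval from the exact binomial distribution of the counts, which covers counting error only. Comparison was limited to the 18966 genes whose mean reached 10 counts, and their median log2 ratio was −0.0044 for HO against WT, 0.0065 for HE against WT and −0.0092 for HO against HE. Counts of the targeted gene setd2 were 1348, 1380 and 2087 in the libraries labelled WT, HE and HO. Its mRNA was thus highest in the library labelled HO, with a log2 ratio of 0.55 (0.45 to 0.65) against WT. By RT-qPCR of older embryos, the study reports a dramatic decrease of setd2 mRNA in E3fs1 homozygotes, but no change in its C-terminal frame-shift line. Every direction below rests on the labels. Each of skeletal muscle, heart, blood, hatching gland, yolk syncytial layer, neurons, epidermis and lens had detected markers. The summed levels of these markers differed between the libraries. In the libraries labelled WT, HE and HO they were 32436, 30642 and 29868 CPM for skeletal muscle and 3683, 5423 and 4963 CPM for erythroid genes. For hatching gland genes they were 1336, 1776 and 1155 CPM, and for lens genes 255, 393 and 370 CPM. In such bulk samples, fewer cells of a type and less RNA per cell cannot be told apart. The ratios also followed gene length. In the 20 bins of exonic length, the median log2 ratio of HO against HE ran from −0.11 in the shortest bin (62 to 826 bases) to 0.18 in the longest (7610 to 98586 bases), and that of HO against WT from −0.085 to 0.057. The 32 compared members had a median exonic length of 2379 bases against 2490 bases for all compared genes.

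Most of the pathway was expressed well above the detection limit. Of the 35 members, 24 were above 10 FPKM in the library labelled WT and 25 in each of the others. The most abundant per exonic length was idh2, which codes for the NADP-dependent isocitrate dehydrogenase of mitochondria, with 422, 453 and 432 FPKM in the libraries labelled WT, HE and HO. It ranked 157, 148 and 148 among all genes of the respective library. Its gene model holds only 975 bases of exon, the second shortest of the members, and the level per length depends on that model. Next in each library came suclg1 (a subunit of succinyl-CoA ligase), mdh1aa (cytosolic malate dehydrogenase) and cs (citrate synthase), which makes citrate from acetyl-CoA and oxaloacetate. The sparsest members were pdha1b, sdhda and pdk3b, each with at most 11 counts in any library. Together the 35 genes held 0.357% of the counts in the library labelled WT (exact Clopper-Pearson 95% interval 0.354 to 0.360), 0.363% (0.360 to 0.367) in the library labelled HE and 0.353% (0.350 to 0.357) in the library labelled HO. The share was thus highest in the library labelled HE, and the intervals of WT and HO overlapped.

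**Figure D1:**
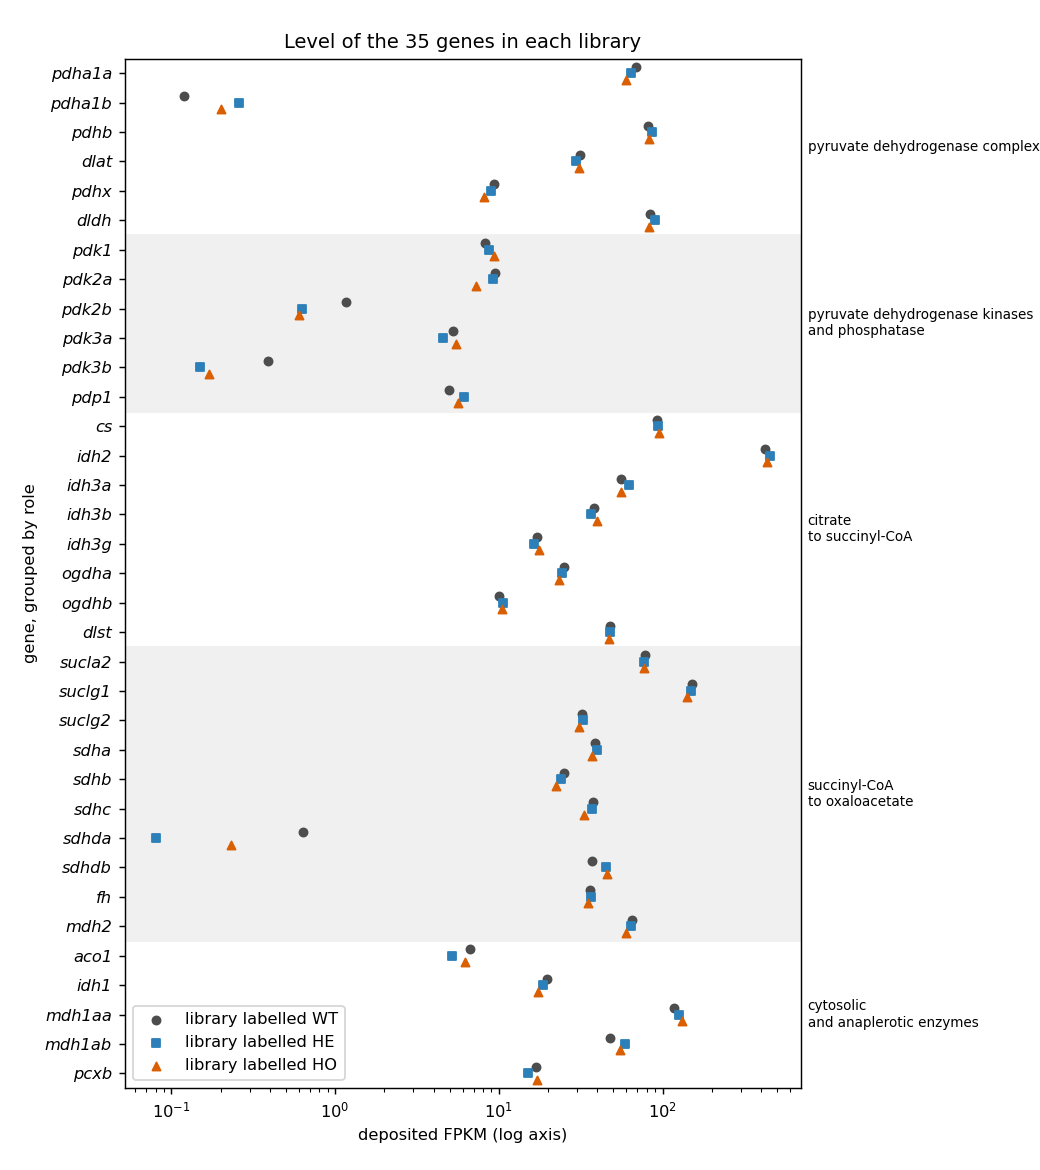
Deposited FPKM (log axis) of each of the 35 genes, with 1 point per library, grouped by role. The 3 points of a gene lie close together except in pdha1b, pdk2b, pdk3b and sdhda, and the levels run from 0.08 FPKM for sdhda in the library labelled HE to 453 FPKM for idh2 in the same library.

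The pyruvate dehydrogenase complex was carried by 1 of the paired alpha subunits. The gene pdha1a, which codes for the alpha subunit of the decarboxylase and holds the sites that the kinases phosphorylate, had 69.1, 64.5 and 59.8 FPKM in the libraries labelled WT, HE and HO. Its paralogue pdha1b had 4, 8 and 7 counts, so that pdha1a made up 99.8%, 99.6% and 99.7% of the summed FPKM of the pair. The level of pdha1a was lowest in the library labelled HO and intermediate in the library labelled HE. Its log2 ratio was −0.20 (−0.29 to −0.12) for HO against WT, −0.073 (−0.16 to 0.013) for HE against WT and −0.13 (−0.22 to −0.042) for HO against HE. The beta subunit gene pdhb had 81.4, 86.5 and 82.4 FPKM, with a log2 ratio of 0.022 (−0.073 to 0.12) for HO against WT and 0.11 (0.017 to 0.21) for HE against WT. The alpha and beta subunits, which form one heterotetramer, therefore did not move together. The ratio of pdhb to pdha1a FPKM was 1.18 (1.11 to 1.26) in the library labelled WT, 1.34 (1.26 to 1.43) in the library labelled HE and 1.38 (1.29 to 1.47) in the library labelled HO. The intervals of WT and HO did not overlap, and those of WT and HE lay side by side at 1.26.

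The gene dldh codes for dihydrolipoamide dehydrogenase, which the complex shares with oxoglutarate dehydrogenase (the symbol dld in zebrafish is the Notch ligand deltaD and was not used). It had 84.3, 89.4 and 82.4 FPKM, and was higher in the library labelled HE than in the library labelled WT by 0.11 (0.022 to 0.20) on the log2 scale. The ratio of HO to HE for dldh was −0.14 (−0.23 to −0.053). With the trend over gene length removed, both values of dldh and the HE against WT value of pdhb were within counting error, and with scaling by total counts so were the HE against WT values of both genes. The acetyltransferase gene dlat had 31.3, 29.7 and 30.8 FPKM, and its log2 ratios all had intervals that include 0. The gene pdhx, whose product tethers dihydrolipoamide dehydrogenase to the core, was the least abundant of the expressed subunits, with 9.29, 9.01 and 8.16 FPKM. Its log2 ratio was −0.18 (−0.45 to 0.080) for HO against WT and −0.17 (−0.43 to 0.10) for HO against HE, within counting error at its depth. Its ratio to pdha1a was between 0.13 and 0.14 in all 3 libraries. The alpha and beta subunits and dldh were thus the abundant mRNAs of the complex, dlat was at about 0.45 to 0.52 of pdha1a, and pdhx lay lowest in each library.

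Among the kinases, the order of the leading pair per exonic length differed in the library labelled HO. The gene pdk2a had 9.41, 9.27 and 7.22 FPKM in the libraries labelled WT, HE and HO, and pdk1, known in mammals as a target of the hypoxia response, had 8.19, 8.66 and 9.31 FPKM. Of the summed FPKM of the 5 kinase members, pdk2a held 38.6% (35.3 to 42.0), 39.8% (36.3 to 43.5) and 31.7% (28.6 to 34.9), and pdk1 held 33.6% (29.9 to 37.4), 37.2% (33.3 to 41.2) and 40.9% (37.0 to 44.7). The gene pdk2a was thus the leading kinase in the libraries labelled WT and HE, with overlapping intervals, and pdk1 was the leading kinase in the library labelled HO, where the intervals did not overlap. This order rests on the exonic lengths of the gene models, 3727 bases for pdk2a and 1684 for pdk1. Of the summed counts of the kinase members, pdk2a held the larger part in each library, with 50.6% against 29.5% for pdk1 in the library labelled HO. The log2 ratio of pdk2a was −0.38 (−0.58 to −0.18) for HO against WT, 0.0052 (−0.19 to 0.20) for HE against WT and −0.38 (−0.59 to −0.18) for HO against HE. For pdk1 the corresponding values were 0.19 (−0.099 to 0.48), 0.11 (−0.20 to 0.41) and 0.082 (−0.21 to 0.37), within counting error. Kinases of this family are abundant in muscle and heart in mammals. Of 18 table rows of skeletal muscle markers compared for HO against WT, 13 were lower and 1 was higher past counting error. The shares of all compared genes were 11.6% and 11.8%, and 13.4% and 15.2% among genes averaging at least 100 counts. Many of the muscle rows have far higher counts, so that small ratios pass, such as that of mylpfa, −0.017 (−0.033 to −0.0012). The median log2 ratio of the muscle rows was −0.13, and of 7 heart markers 2 were lower, with a median of −0.18. For HE against WT, 10 of the 18 muscle marker rows were lower past counting error (12.3% of all compared genes) and 6 were higher (13.1%). The median of the muscle markers was −0.10 in that pair, where pdk2a was at 0.0052. For HO against HE their median was 0.013, where pdk2a was at −0.38, and that of the heart markers was −0.21. Their part in the pdk2a value was not tested.

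The remaining kinase members had lower FPKM than pdk1 and pdk2a in each library, and pdk2b and pdk3b were sparse. The gene pdk3a had 5.22, 4.58 and 5.49 FPKM, within counting error in each pair of libraries. Its paralogue pdk3b had 11, 4 and 5 counts and was below the minimum for comparison. The gene pdk2b had 37, 19 and 20 counts, which is 1.17, 0.63 and 0.60 FPKM, and was the only compared member past a log2 ratio of 0.5. Its log2 ratio was −0.90 (−1.83 to −0.15) for HO against WT and −0.81 (−1.75 to −0.035) for HE against WT. These wide intervals rest on few reads in the libraries labelled HE and HO, and the upper bound for HE against WT is close to 0. The phosphatase gene pdp1, whose product reverses the phosphorylation and which is the 1 member on chromosome 16 together with setd2 (GRCz12tu annotation), had 4.99, 6.09 and 5.66 FPKM. Its log2 ratio was 0.31 (−0.024 to 0.65) for HE against WT and 0.18 (−0.15 to 0.52) for HO against WT, within counting error. The summed kinase and phosphatase members had 70.7, 71.7 and 64.6 CPM in the libraries labelled WT, HE and HO. The log2 ratio of this sum was −0.13 (−0.26 to 0.0027) for HO against WT and −0.15 (−0.28 to −0.017) for HO against HE. The sum pools the kinases with the phosphatase, whose action on the complex is the opposite.

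**Figure D2:**
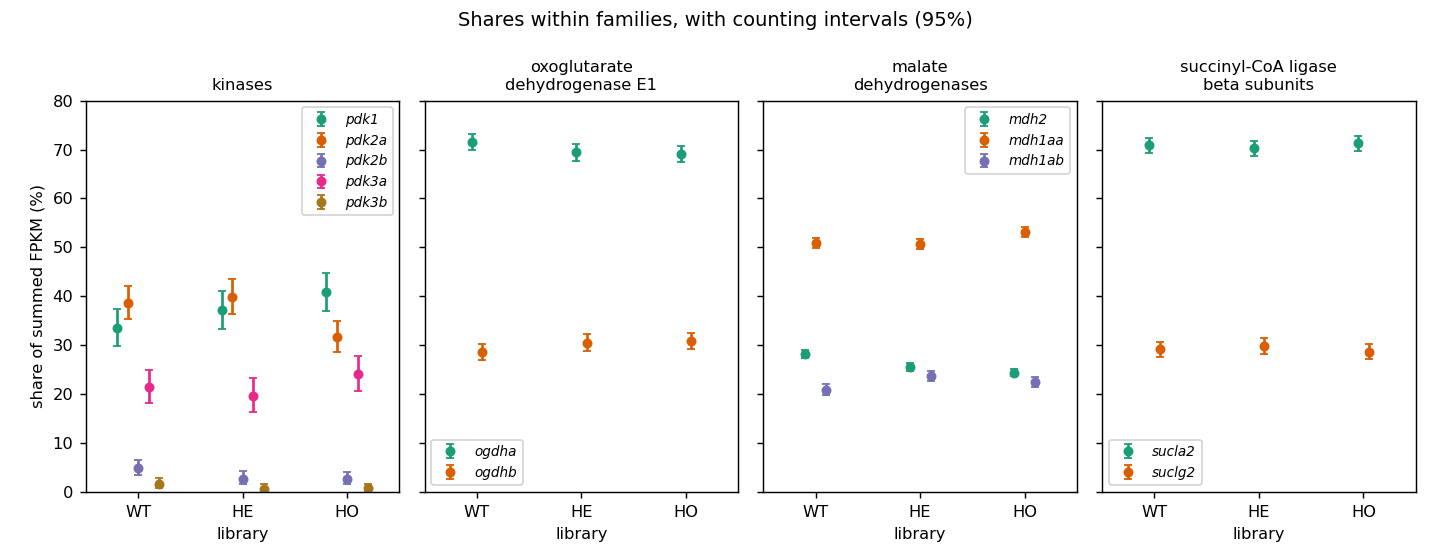
Share of each gene in the summed FPKM (%) of its family, in the libraries labelled WT, HE and HO, for the kinases, the decarboxylase paralogues of oxoglutarate dehydrogenase, the malate dehydrogenases and the beta subunits of succinyl-CoA ligase. Bars are 95% counting intervals. The order of pdk1 and pdk2a is reversed in the library labelled HO, and the share of mdh2 is lower in the libraries labelled HE and HO than in the library labelled WT.

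The steps from citrate to succinyl-CoA differed little between the libraries labelled HO and WT. Citrate synthase (cs) had 91.9, 93.8 and 94.6 FPKM in the libraries labelled WT, HE and HO, with a log2 ratio of 0.046 (−0.018 to 0.11) for HO against WT. For idh2 the log2 ratio was 0.038 (−0.016 to 0.091) for HO against WT, 0.13 (0.076 to 0.18) for HE against WT and −0.092 (−0.15 to −0.040) for HO against HE. With the trend over gene length removed, the value of idh2 for HO against WT became 0.11 and passed counting error, and that for HO against HE turned to 0.039, within it. The 8 members of this stretch had log2 ratios between −0.094 and 0.067 for HO against WT, the narrowest range among the roles. Their summed level was 1221, 1285 and 1236 CPM, a log2 ratio of 0.018 (−0.013 to 0.049) for HO against WT and 0.073 (0.042 to 0.10) for HE against WT.

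The NAD-dependent isocitrate dehydrogenase, a regulated enzyme of the cycle, has 3 kinds of subunit. The catalytic alpha subunit gene idh3a had 55.8, 62.7 and 55.4 FPKM in the libraries labelled WT, HE and HO and stood out in the library labelled HE. Its log2 ratio was 0.20 (0.075 to 0.32) for HE against WT and −0.20 (−0.32 to −0.082) for HO against HE. The genes idh3b and idh3g, which code for the other subunits, had 37.9, 36.5 and 39.5 FPKM and 17.1, 16.3 and 17.7 FPKM, with intervals that include 0 in each pair. The ratio of idh3b to idh3a FPKM was 0.68 (0.62 to 0.74), 0.58 (0.53 to 0.64) and 0.71 (0.65 to 0.78), so that the library labelled HE had the lowest value, with an interval that did not overlap that of HO. Levels of idh2 were 7.22 to 7.79 times those of idh3a in the 3 libraries.

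Oxoglutarate dehydrogenase, which converts oxoglutarate to succinyl-CoA, drew on both of its paired decarboxylase genes. The gene ogdha had 25, 24.2 and 23.4 FPKM and ogdhb had 9.97, 10.6 and 10.4 FPKM. The share of ogdha in the pair was 71.5% (69.8 to 73.1), 69.5% (67.8 to 71.1) and 69.2% (67.5 to 70.8), with overlapping intervals. The log2 ratio of ogdha was −0.094 (−0.18 to −0.0066) for HO against WT, and that of ogdhb was 0.067 (−0.066 to 0.20). The succinyltransferase gene dlst had 48.0, 47.7 and 47.1 FPKM, and its log2 ratios lay between −0.039 and 0.016.

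In the stretch from succinyl-CoA to oxaloacetate, 8 of 9 compared members were lower in the library labelled HO than in the library labelled WT, and sdhdb was higher (50.9% of all compared genes were lower). Of the 8, the intervals of suclg1, sdhb, sdhc and mdh2 exclude 0, and the value of sucla2, −0.012 (−0.097 to 0.073), turned to 0.0063 with the trend over gene length removed. Succinyl-CoA ligase makes ATP or GTP, succinate dehydrogenase feeds electrons to ubiquinone, fumarase (fh) hydrates fumarate, and mdh2 closes the cycle. The summed level of these genes was 1087, 1111 and 1044 CPM in the libraries labelled WT, HE and HO, a log2 ratio of −0.059 (−0.092 to −0.026) for HO against WT.

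The subunits of succinate dehydrogenase did not move together. This complex has a flavoprotein (sdha), an iron-sulfur protein (sdhb) and membrane anchors (sdhc and the paired sdhda and sdhdb). The anchor gene sdhdb had 36.9, 44.9 and 46.0 FPKM in the libraries labelled WT, HE and HO. The libraries labelled HE and HO were thus both above the library labelled WT, with log2 ratios of 0.31 (0.16 to 0.45) for HE and 0.32 (0.18 to 0.46) for HO, and they differed from each other by 0.014 (−0.12 to 0.15). Its paralogue sdhda had 8, 1 and 3 counts and held at most 1.71% (0.74 to 3.34) of the summed FPKM of the pair. The subunits sdhb and sdhc were lower in the library labelled HO than in the others. For sdhb, with 25.1, 24.1 and 22.2 FPKM, the log2 ratio was −0.17 (−0.30 to −0.047) for HO against WT and −0.14 (−0.26 to −0.0090) for HO against HE, the second of which was within counting error with total counts. For sdhc, with 37.8, 37.1 and 33.0 FPKM, it was −0.19 (−0.37 to −0.0097) and −0.19 (−0.38 to −0.0061), and both values were within counting error with the trend over gene length removed. The flavoprotein sdha had 38.5, 39.6 and 37.1 FPKM and a log2 ratio of −0.049 (−0.15 to 0.056) for HO against WT. The ratio of sdhdb to sdhb FPKM was 1.47 (1.34 to 1.62), 1.87 (1.70 to 2.05) and 2.07 (1.89 to 2.26), and the interval of the library labelled WT lay below both others. Since both genes come from the same library, no library scaling enters this ratio. In the GRCz12tu annotation the spans of 15 of the 35 members, introns included, overlap another gene. Among them are sdhdb (nkapd1), pdk2a (LOC100538338), idh1 (kcnh3, with 49, 33 and 69 counts) and pdk2b (si:ch211-264f5.2, with 8, 7 and 5 counts). Whether the counting used strand is not given in the sources used here, and reads from overlapping genes may be shared.

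Succinyl-CoA ligase was represented by its alpha subunit suclg1 and by the beta subunits sucla2 and suclg2, which form the ATP-specific and the GTP-specific enzyme. The gene suclg1 had 151, 149 and 141 FPKM, a log2 ratio of −0.094 (−0.17 to −0.023) for HO against WT that became −0.042 and fell within counting error with the trend over gene length removed. The gene sucla2 had 77.90, 76.55 and 77.01 FPKM and suclg2 had 32.02, 32.43 and 31.00 FPKM. The share of sucla2 in the summed beta subunits was 70.9% (69.3 to 72.4), 70.2% (68.6 to 71.8) and 71.3% (69.8 to 72.8), with overlapping intervals. Fumarase mRNA (fh) was at 35.95, 36.55 and 34.97 FPKM, with intervals that include 0 in each pair.

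The malate dehydrogenases of the mitochondrion and the cytosol differed in opposite directions between the libraries labelled HO and WT. The mitochondrial mdh2 had 64.7, 63.9 and 59.9 FPKM in the libraries labelled WT, HE and HO, with a log2 ratio of −0.11 (−0.17 to −0.039) for HO against WT and 0.0079 (−0.061 to 0.077) for HE against WT. Both cytosolic genes were higher in the libraries labelled HE and HO than in the library labelled WT. The gene mdh1aa had 117, 127 and 131 FPKM, with log2 ratios of 0.14 (0.079 to 0.20) for HE and 0.17 (0.11 to 0.23) for HO against WT. The gene mdh1ab had 48.0, 59.2 and 55.2 FPKM, with log2 ratios of 0.33 (0.21 to 0.45) for HE and 0.20 (0.089 to 0.32) for HO against WT. Of the summed FPKM of the 3 genes, mdh2 held 28.2% (27.3 to 29.1) in the library labelled WT, 25.6% (24.8 to 26.4) in the library labelled HE and 24.4% (23.6 to 25.1) in the library labelled HO. The interval of the library labelled WT lay above both others, and those of HE and HO overlapped. Within the cytosolic pair, mdh1aa held 70.9% (69.5 to 72.3), 68.1% (66.8 to 69.5) and 70.3% (69.1 to 71.6). How reads shared by near-identical paralogues were assigned is not given in the sources used here, so the split within a pair is uncertain to that extent. In the GRCz12tu annotation mdh1ab overlaps wdpcp, which had 44, 75 and 70 counts against 1104, 1302 and 1347 for mdh1ab, and the span of mdh2 overlaps 10 other genes.

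**Figure D3:**
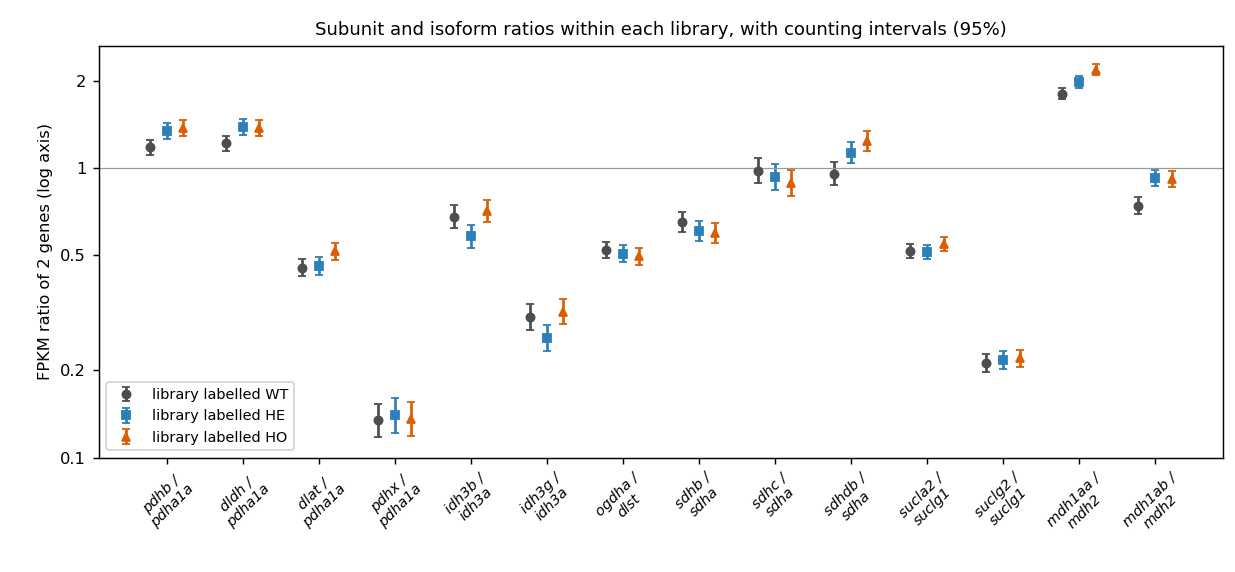
Ratio of the FPKM of 2 genes of the same enzyme (log axis) within each library, with 95% counting intervals. The points of the libraries labelled HE and HO lie above those of WT for pdhb and dldh over pdha1a, sdhdb over sdha, and both mdh1aa and mdh1ab over mdh2, whereas the ratios of pdhx, ogdha and suclg2 to their partners overlap in all 3 libraries.

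The other cytosolic and anaplerotic enzymes were less abundant. The cytosolic isocitrate dehydrogenase idh1, which makes NADPH, had 19.7, 18.5 and 17.2 FPKM, a log2 ratio of −0.19 (−0.31 to −0.065) for HO against WT, whereas its mitochondrial counterpart idh2 was within counting error in that pair. The share of idh2 in the summed FPKM of both was 95.5% (95.3 to 95.8), 96.1% (95.8 to 96.3) and 96.2% (95.9 to 96.4). The gene aco1 codes for the cytosolic aconitase, which in mammals also acts as an iron-responsive RNA-binding protein. It had 6.65, 5.14 and 6.17 FPKM from 256, 189 and 252 counts and was lowest in the library labelled HE, with a log2 ratio of −0.34 (−0.63 to −0.070) for HE against WT and −0.10 (−0.36 to 0.15) for HO against WT. The gene pcxb, for pyruvate carboxylase, which refills the cycle with oxaloacetate, was also lowest in the library labelled HE. It had 16.9, 15.0 and 17.1 FPKM, with a log2 ratio of −0.15 (−0.26 to −0.030) for HE against WT and 0.16 (0.048 to 0.28) for HO against HE. The second value of pcxb was within counting error with the trend over gene length removed. Its paralogue pcxa, not a member and named after its values were seen, held 28.8%, 30.8% and 27.5% of the summed FPKM of the pair. The log2 ratio of pcxa was −0.012 (−0.16 to 0.13) for HE against WT.

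Across the members, differences between libraries were small. A log2 ratio of at least 0.5 in either direction was reached by 1 of 32 compared members for HO against WT and by 1 for HE against WT, in each case pdk2b, and by 0 for HO against HE. Among all compared genes the shares past this value were 11.9% (5.09% higher and 6.76% lower), 13.6% (5.36% and 8.25%) and 14.4% (7.65% and 6.72%). This reading depends on depth, since 31 of the members but only 12017 of 18966 compared genes averaged 100 counts or more. Among genes at that depth the shares past 0.5 were 2.88%, 3.87% and 4.65%, against 0 of 31 members in each pair.

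By the narrower measure of a counting interval that excludes 0, 12 of 32 members differed for HO against WT (23.5% of all compared genes), 10 for HE against WT (25.5%) and 12 for HO against HE (28.9%). At the higher depth it was 11, 9 and 12 of 31 members, which is 35.5%, 29.0% and 38.7% against 28.5%, 31.1% and 36.0% of all genes there. For HO against WT, 3 members were higher (sdhdb, mdh1aa and mdh1ab) and 9 lower (pdha1a, pdk2a, pdk2b, ogdha, suclg1, sdhb, sdhc, mdh2 and idh1), against 11.8% higher and 11.6% lower among all compared genes, and 15.2% and 13.4% at the higher depth. For HE against WT, 7 were higher (pdhb, dldh, idh2, idh3a, sdhdb, mdh1aa and mdh1ab) and 3 lower (pdk2b, pcxb and aco1), against 13.1% and 12.3% of all, and 17.3% and 13.9% at the higher depth. For HO against HE, 1 was higher (pcxb) and 11 were lower (pdha1a, dldh, pdk2a, idh2, idh3a, suclg1, sdha, sdhb, sdhc, mdh2 and mdh1ab), against 13.8% and 15.2% of all, and 16.8% and 19.1% at the higher depth. With the trend over gene length removed, 1 member was higher (idh3b) and 7 were lower for HO against HE (pdha1a, pdk2a, idh3a, sdhb, mdh2, idh1 and ogdha). The shares of all compared genes with that trend removed are not given here, so these counts describe the members only.

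The direction of all 32 compared members was also counted. For HO against WT, 19 were lower, against 50.9% of all compared genes, and their median log2 ratio was −0.020. For HE against WT, 13 were lower (49.0% of all) and the median was 0.0089. For HO against HE, 23 were lower (51.5% of all), 71.9% of the members, and the median was −0.089. These comparisons share libraries and are not independent of each other. With the trend over gene length removed, 21 of 32 members were lower for HO against HE and the median was −0.036. The commonest order was HO lowest and HE highest, in 10 members (dldh, pdk2a, idh3a, dlst, sucla2, suclg1, suclg2, sdha, fh and mdh2). Another 7 went down from WT through HE to HO (pdha1a, pdhx, pdk2b, ogdha, sdhb, sdhc and idh1), and 3 went up (pdk1, sdhdb and mdh1aa). These orders include differences within counting error. Their shares among all compared genes are not given here, so the counts describe these members and do not set them apart from other genes.

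**Figure D4:**
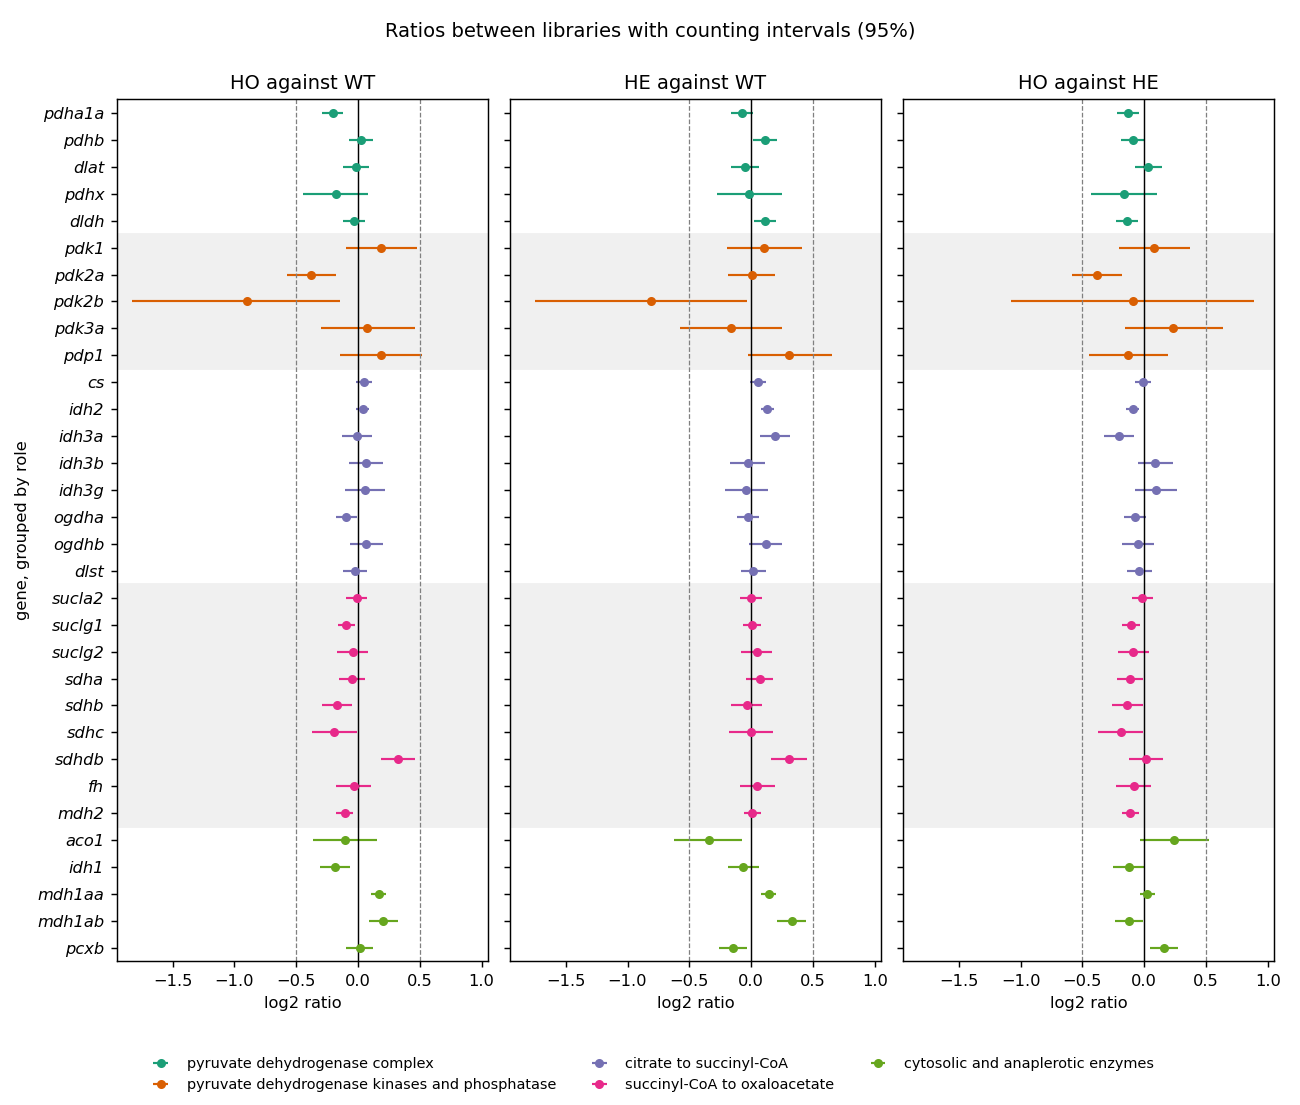
Log2 ratio of each of the 32 compared members with its 95% counting interval, in 3 panels for the pairs of libraries. Dashed lines mark a log2 ratio of 0.5 in either direction. Only pdk2b lies past them, in the first and second panels, and sdhdb, mdh1aa and mdh1ab lie above 0 in both of these.

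**Figure D5:**
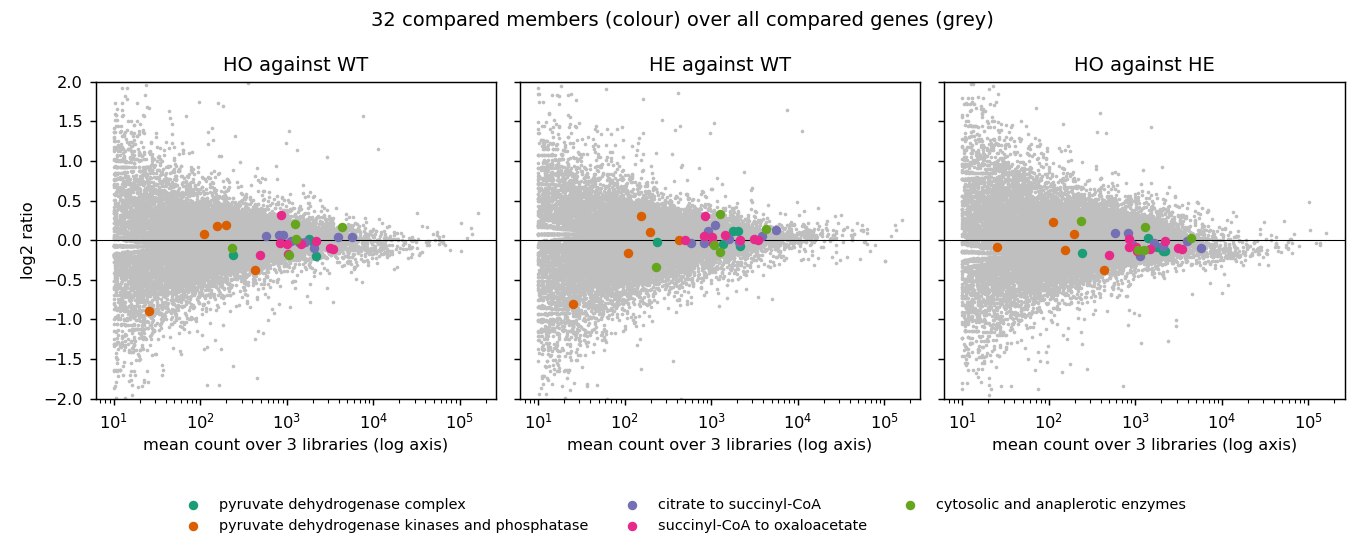
Log2 ratio against mean count (log axis) for the 32 compared members, coloured by role, over all 18966 compared genes in grey. The members sit near 0 at high counts, and the widest value belongs to pdk2b, at low counts, in the first and second panels and to pdk2a in the last. The vertical axis ends at 2 in either direction, which leaves out 22, 30 and 30 genes in the panels from left to right.

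Genes that act beside the cycle were read from lists of symbols. In the list of other kinases, phosphatases and cycle paralogues, 11 genes were compared, and for HO against WT 0 were higher and 1 lower past a log2 ratio of 0.5 (5.09% and 6.76% of all compared genes). The lower one was PDPR, which codes for a regulatory subunit of pyruvate dehydrogenase phosphatase. It had 8.92, 8.97 and 6.24 FPKM, a log2 ratio of −0.51 (−0.74 to −0.28) for HO against WT and 0.035 (−0.18 to 0.25) for HE against WT. The remaining kinase gene pdk4, named here after its values were seen, had 202, 176 and 169 counts and a log2 ratio of −0.34 (−0.64 to −0.037) for HO against WT. The gene pck1, for phosphoenolpyruvate carboxykinase, which draws oxaloacetate out of the cycle, had 26.9, 16.4 and 20.7 FPKM and log2 ratios of −0.69 (−0.84 to −0.54) for HE against WT and −0.37 (−0.51 to −0.24) for HO against WT.

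Of 18 compared genes of pyruvate and fuel entry, 0 were past 0.5 in either direction for HO against WT (11.9% of all compared genes). Lactate dehydrogenases interconvert pyruvate and lactate. The gene ldha had 58.6, 51.9 and 67.6 FPKM, a log2 ratio of 0.21 (0.12 to 0.30) for HO against WT and −0.15 (−0.25 to −0.046) for HE against WT, and ldhba had 283, 263 and 256 FPKM, with −0.14 (−0.19 to −0.094) for HO against WT. Among 16 compared genes of lipoylation, iron-sulfur clusters and succinate dehydrogenase assembly, 1 was higher and 0 lower past 0.5 for each of HO and HE against WT. Among all compared genes the shares were 5.09% higher and 6.76% lower for HO, and 5.36% and 8.25% for HE. For HO the higher gene was the lipoyltransferase gene lipt2, with 14, 9 and 22 counts and an interval that includes 0, named after its values were seen. For HE the higher gene was sdhaf3, an assembly factor of succinate dehydrogenase, with 64, 103 and 77 counts and a log2 ratio of 0.76 (0.31 to 1.25). Of 18 compared genes that link the cycle to glutamate and aspartate, 1 was higher and 0 lower past 0.5 for HO against WT. The shares of all compared genes were 5.09% and 6.76%. For HE against WT, 1 was higher and 1 lower, against 5.36% and 8.25% of all compared genes. The higher gene in both pairs was glsb, a glutaminase gene, with 148, 209 and 266 counts. Its log2 ratios were 0.58 (0.28 to 0.90) for HE and 0.76 (0.47 to 1.06) for HO against WT. Its paralogue glsa, named after its values were seen, had 10.36, 7.37 and 9.8 FPKM, against 1.91, 2.83 and 3.24 for glsb. The log2 ratio of glsa was −0.46 (−0.74 to −0.19) for HE and −0.076 (−0.33 to 0.17) for HO against WT. The 8 genes of the sister dehydrogenase complexes for branched-chain amino acids, lysine and glycine had 0 past 0.5 for HO and for HE against WT. The shares of all compared genes past it were 11.9% and 13.6%.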

How the data were processed

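RNA of whole embryos was sequenced in 3 libraries, 1 per genotype, and groups were taken from the genotype labels. The counts are the deposited reads per gene without normalization, and the FPKM values are as the authors deposited them: dividing each count by exonic length and the library total gives them back to within 0.0050. The sources differ on the processing. The study's methods name TopHat, GRCz10 and Cufflinks, the submitters' processing notes name HISAT2 2.0.2 and GRCz11, and the counting tool, strand setting and annotation release are not given in the sources used here. The methods name a stranded kit and the labels other kits. The per-library tables held 0 values that differ from the series table, and 1 column, headed with another library's name, was not used.

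Counts were scaled by TMM in edgeR 4.0.16 (R 4.3.3) and turned to log2 CPM with a prior count of 2. Genes averaging under 10 counts were not compared. Intervals of 95% are exact binomial and, like all intervals here, cover counting error only, since each genotype has 1 library. They treat reads as independent, which PCR copies of a molecule are not. Shares within families were computed per exonic length. No test between genotypes was possible, and no set test was run. Called genes are those past a log2 ratio of 0.5. The members and lists were chosen with earlier results of these data known. All members are accounted for. By a fixed rule, values per library were given for members with an interval that excludes 0 and a log2 ratio of at least 0.25, for paralogue pairs, for the most and least abundant member of each role, and for others that share an enzyme with them. From each list up to 3 genes of highest mean count, and those past 0.5 with an interval that excludes 0, could be named. Chromosomes and overlaps were looked up by symbol in the RefSeq table (GRCz12tu), which matched 35 of 35 members. Positions are not given because the builds differ. The values of 1 listed gene are not reported here.

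The alternatives were DESeq2 1.42.0 size factors, total counts, FPKM (log2 after adding 1 or 0.1), all genes kept, only genes averaging 100 counts or more, 0.25 as prior count, subtraction of the median of each of 20 exonic length classes, and leaving out members on the chromosome of setd2. The calculations were tested on simulated counts. Python 3.11.15 with numpy 2.4.6, pandas 2.3.3, scipy 1.17.1 and matplotlib 3.10.9 was used.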

Additional observations from a re-analysis of the deposited data

How the results depend on the processing

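The median log2 ratio of the members stayed below 0 under all alternatives for HO against WT (−0.024 to −0.015) and for HO against HE (−0.090 to −0.036). For HE against WT it lay between −0.018 and 0.0099 and changed sign with total counts and both FPKM settings. The median of all compared genes for that pair changed sign in the same settings. It was −0.020 with total counts and −0.016 and −0.020 with FPKM and a pseudocount of 1 and 0.1, against 0.0065 in the main setting. The number of lower members under the alternatives ranged from 18 to 21, 12 to 18 and 21 to 24 for HO against WT, HE against WT and HO against HE. The number past a log2 ratio of 0.5 was 0 for HO against WT and for HE against WT with FPKM and a pseudocount of 1 and with a minimum mean of 100 counts. Without a filter it was 4, 4 and 1, by the construction of that setting, which adds pdha1b, sdhda and pdk3b. The log2 ratio of idh2 for HO against HE was 0.039 with the length trend removed. Alternatives for the number of members past counting error were added after the values were seen. Shares of all compared genes are not given for the alternatives of scaling and length trend, so these numbers describe the members only. For HO against HE the number past counting error was 8 with total counts, where mdh1ab, sdha, sdhb and sdhc were lost. It was 8 with the length trend removed, and sdhc was lost with DESeq2 size factors. For HO against WT, sdhc and suclg1 were lost and idh2 joined with the length trend removed. For HE against WT, dldh and pdhb were lost and pdha1a joined with total counts or the length trend removed. The calls of sdhdb, mdh1aa and mdh1ab for HE and HO against WT, and those of pdha1a and pdk2a for HO against WT, were kept under the alternatives that gave an interval. Of 18 shares of the first gene in a paralogue pair, 4 moved past their interval with raw counts in place of FPKM, those of mdh1aa in each library (76.4% to 78.6%) and of pdk2a in the library labelled WT (92.7%). No paired analysis was possible because each group holds 1 library. Depth limits pdha1b, sdhda, pdk3b and pdk2b most.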

Other observations

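The list of regulators of mitochondrial and hypoxia genes held 31 compared genes. For HO against WT, 1 was higher and 2 were lower past a log2 ratio of 0.5, against 5.09% and 6.76% of all compared genes. For HE against WT, 1 was higher (egln1a) and 5 were lower (arnt, egln2, esrrga, slc2a1a and tfb1m), against 5.36% and 8.25%. The interval of tfb1m in that pair, −1.33 to 0.092, includes 0. For HO against HE, 6 were higher, among them arnt, arnt2, epas1a and egln2, and 3 were lower, against 7.65% and 6.72%. The gene arnt, for the shared partner of the hypoxia-inducible factors, had 126, 55 and 120 counts in the libraries labelled WT, HE and HO, a log2 ratio of −1.08 (−1.59 to −0.64) for HE against WT and −0.15 (−0.53 to 0.22) for HO against WT. The glucose transporter gene slc2a1a, with 72, 41 and 52 counts, had −0.70 (−1.31 to −0.15) and −0.53 (−1.09 to −0.017). Its paralogue slc2a1b, named after its values were seen, had 6.89, 6.55 and 8.35 FPKM, against 3.01, 1.79 and 2.05 for slc2a1a. The log2 ratio of slc2a1b was −0.047 (−0.37 to 0.27) for HE against WT and 0.28 (−0.011 to 0.57) for HO against WT. The paralogue of arnt, arnt2, had 1195, 798 and 1671 counts in the libraries labelled WT, HE and HO. The log2 ratio of arnt2 was −0.49 (−0.62 to −0.36) for HE against WT and 0.40 (0.29 to 0.51) for HO against WT. The hypoxia-inducible factor gene epas1a, with 1754, 1335 and 2180 counts, had −0.30 (−0.41 to −0.20) and 0.23 (0.14 to 0.32), and the prolyl hydroxylase gene egln2, with 156, 94 and 244 counts, had −0.63 (−1.02 to −0.26) and 0.56 (0.27 to 0.86). The factor gene hif1ab had 49.8, 49.7 and 48.0 FPKM and intervals that include 0 against WT. The median log2 ratio of genes in the length bin of arnt2 was −0.12 for HE against WT and 0.057 for HO against WT, and in that of epas1a −0.040 and 0.032. The gene tfb1m, for a mitochondrial ribosomal RNA methyltransferase, had 47, 29 and 17 counts and a log2 ratio of −1.44 (−2.44 to −0.72) for HO against WT.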
